A study of Mus musculus with 18 samples.

Results

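Autophagy delivers parts of the cytoplasm to the lysosome, where they are broken down. A kinase complex built around ULK1 starts the process, a lipid kinase complex with Beclin 1 marks the membrane, and 2 ubiquitin-like conjugation systems attach the ATG8 proteins (the LC3 and GABARAP families) to the growing autophagosome. Cargo receptors bind both the cargo and the ATG8 proteins, and the lysosome then digests what arrives with cathepsins and other acid hydrolases. In T cells, growth factor cytokines feed nutrient uptake and mTORC1, a kinase known to restrain ULK1 and the lysosomal transcription factors TFEB and TFE3.

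The 40 genes described here were listed by name, from the initiating kinases to the lysosomal cholesterol transporters, and 39 of them were measured, out of 18194 genes on the array. Cd63 was not analysed here. The choice used names and annotation rather than measured values, though earlier results of these data were known when it was made. For each gene 1 probe set was taken, the brightest by its mean over all 18 arrays among those annotated to that gene alone. A probe set is a group of short probes for one transcript, and its level is given on the log2 scale, so that a difference of 1 is a 2-fold difference.

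RNA came from CD8 T cells of male mice carrying the OT-I T cell receptor transgene, which recognises a peptide of ovalbumin. The cells of all groups had first been activated for 48 hours by peptide-pulsed, irradiated splenocytes of wild-type C57BL/6 mice, and viable cells were then enriched on a density gradient. They were cultured for another 24 hours with 100 ng/ml of 1 cytokine, which was IL-2, IL-4 or IL-7 in 3 of the groups and IL-15 or IL-21 in the other two, or in media control without added cytokine, and each of the 6 groups had 3 arrays. The study states that the T cells were purified again before this culture. The measurements are of bulk RNA, in which fewer cells of a type and less RNA per cell cannot be told apart.

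The deposited values of replicate 3 of IL-2, IL-15 and media control had medians of 4.47 to 4.52, against 5.76 to 5.84 in the other 15 arrays, and the 18 arrays were therefore quantile normalised. All 11 measured markers of CD8 T cells had group means over the background level in every group. That level was 8.72, the 95th percentile of 35 genes of other tissues, and it was set by Mbp and Tg. Without these 2 genes it was 7.23. Of the 39 members, 24 had a mean over 8.72 and 37 a mean over 7.23. Where a group mean lay under 8.72, the difference is given on the log2 scale only, with no fold.

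Across the 6 groups, 14 of 39 members differed by the moderated F test of limma (adjusted p under 0.05), against 13.9% of all genes. They were Ulk1, Atg12, 4 of the 5 ATG8 genes (Map1lc3a, Map1lc3b, Gabarap and Gabarapl1), Lamp2, the cathepsins Ctsa, Ctsb, Ctsd, Ctsl and Ctsw, the acid lipase gene Lipa and the cholesterol-binding Npc2. Neither cargo receptor and neither transcription factor gene passed this test.

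The question of the comparisons with media control is what each cytokine did to these transcripts. IL-2 had the most calls, nearly all downward. After IL-2, 16 of 39 members fell and 1 rose, while 8.0% of all genes were lower and 7.83% higher. After IL-4, 9 members fell and 1 rose, while 5.10% of all genes were lower and 3.98% higher. After IL-7, 2 fell and none rose, while 0.747% of all genes were lower and 0.934% higher. After IL-21, 3 fell and 1 rose, while 3.29% of all genes were lower and 3.39% higher. After IL-15 no member was called in either direction, and neither was any other gene (0% higher and 0% lower). At an unadjusted p under 0.05 after IL-15, 3 of 39 members were lower and none higher. All genes were not counted at that threshold, so these 3 are not read as a difference.

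**Figure D1:**
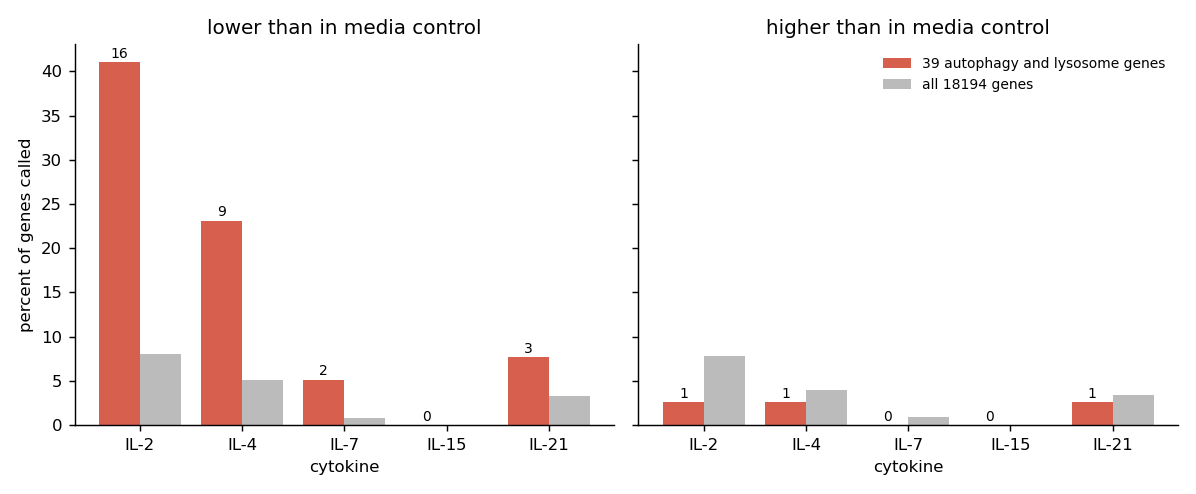
Percent of genes called by limma (adjusted p under 0.05) for each cytokine against media control, on the left those lower and on the right those higher, with the 39 autophagy and lysosome genes in red and all 18194 genes in grey. Numbers over the red bars are counts of members, 16 lower and 1 higher after IL-2.

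The median difference of the 39 members was -0.52 after IL-2, -0.35 after IL-4, -0.31 after IL-7, -0.16 after IL-15 and -0.09 after IL-21. The median over all genes was 0.014, 0.0043, -0.017, -0.0096 and -0.0052 in the same order of cytokines. All 5 comparisons use the same 3 media control arrays. Estimated differences lay below 0 for 31 members after IL-2, 32 after IL-4, 33 after IL-7, 34 after IL-15 and 21 after IL-21. The matching counts of all genes are not given here, but their medians, listed above, lay near 0.

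The replicate numbers paired the arrays, and a fit with the number as a block called more genes of every kind. With this block 23 members fell and 3 rose after IL-2, where 15.1% of all genes were lower and 15.5% higher. After IL-4, 22 members fell and 3 rose, where 12.9% of all genes were lower and 12.9% higher. After IL-7, 17 fell and none rose, where 8.01% of all genes were lower and 8.34% higher. After IL-21, 11 fell and 5 rose, where 10.5% of all genes were lower and 10.6% higher. After IL-15 the block still gave 0 calls among the members and 0% of all genes. Every member called without the block, 17 after IL-2, 10 after IL-4, 2 after IL-7 and 4 after IL-21, was also called with it.

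**Figure D2:**
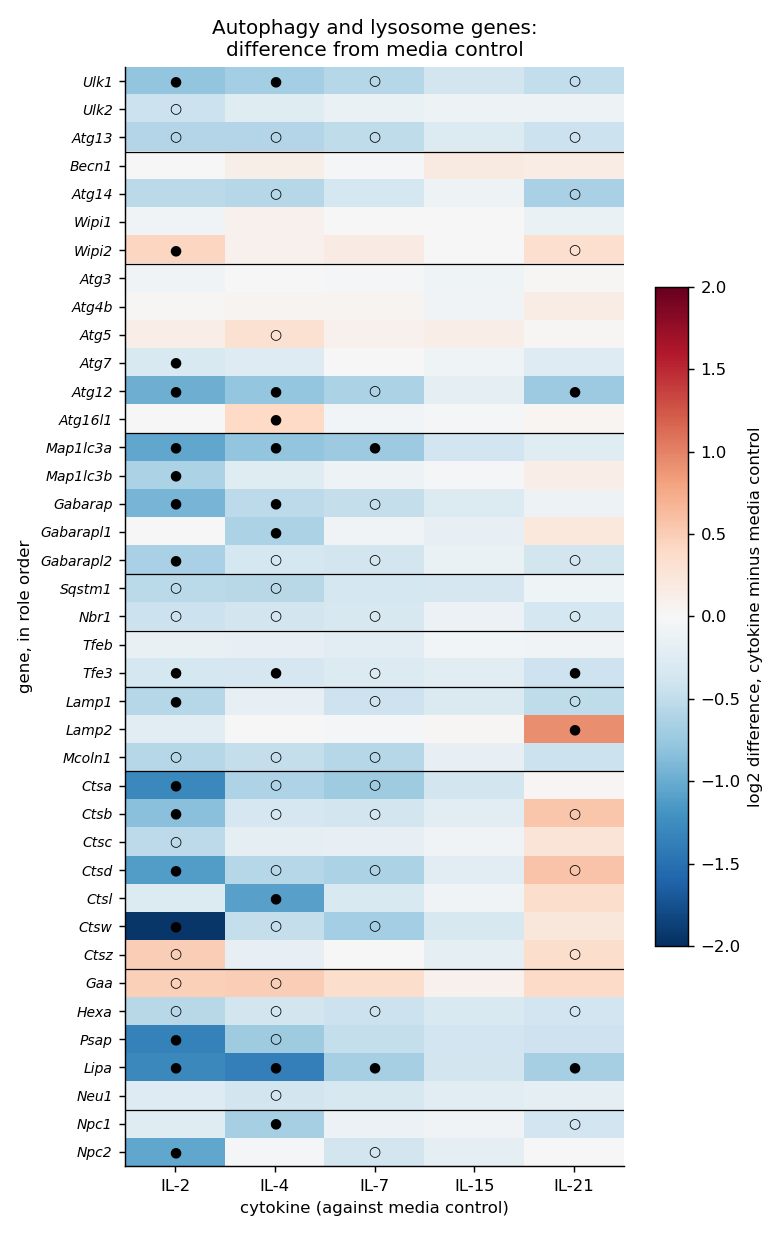
Log2 difference of each cytokine from media control for the 39 genes, in role order from initiation (top) to cholesterol export (bottom), with lines between roles. Filled circles mark calls by limma (adjusted p under 0.05) and open circles those made only with the replicate block. Blue fills most of the IL-2 and IL-4 columns, and the deepest red is Lamp2 after IL-21 (0.93).

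RNA of replicates 1 and 2 of each group was extracted with one kit (RNeasy) and that of replicate 3 with another (TRIzol with Direct-zol). Among the RNeasy arrays alone, with 2 per group, 21 members were lower and 1 higher after IL-2, while 11.8% of all genes were lower and 11.7% higher. After IL-4, 7 were lower and 1 higher (7.25% and 5.46% of all genes), after IL-7 1 lower and none higher (1.56% and 1.78%), after IL-15 none (0% and 0%), and after IL-21 3 lower and 1 higher (4.40% and 4.72%). The TRIzol arrays, with 1 per group, allowed no test. Of 39 members, 29 lay below media control after IL-2, 26 after IL-4, 24 after IL-7, 30 after IL-15 and 24 after IL-21. Median differences were -0.36, -0.31, -0.25, -0.26 and -0.20 in the same order. The share of all genes below media control in these arrays is not given here. Media control had the lower deposited scale with this kit, as did IL-2 and IL-15, whereas IL-4, IL-7 and IL-21 did not. These counts are therefore not compared between cytokines.

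Some counts depend on single arrays. Without media control replicate 2, the members lower than in media control numbered 10 after IL-2, 6 after IL-4, 0 after IL-7 and 1 after IL-21. Of all genes, 953, 500, 24 and 349 were lower in the same order, against 1455, 927, 136 and 598 with all 18 arrays, so calls fell in general. After IL-4 the count was 5 without media control replicate 3 (699 of all genes) and also 5 without IL-4 replicate 3 (656 of all genes). After IL-21 it was 0 without IL-21 replicate 1. After IL-7 it was 5 without media control replicate 1, 4 without IL-15 replicate 2, 1 without IL-2 replicate 1 or IL-21 replicate 2, and 0 on omitting any of 12 other arrays (replicate 3 or 2 of media control, replicate 2 of IL-2, any of IL-4 or IL-7, replicate 1 of IL-15, and replicate 1 or 3 of IL-21). Of the 17 members called after IL-2, 10 stayed called whichever of the 18 arrays was left out (Ulk1, Atg12, Map1lc3a, Gabarap, Ctsa, Ctsb, Ctsd, Ctsw, Lipa and Npc2), and of the 10 called after IL-4, 5 did (Atg12, Map1lc3a, Gabarapl1, Ctsl and Lipa). Neither call after IL-7 and none of the 4 after IL-21 stayed through every such omission. On the deposited values without normalization no member was called in any of the 5 comparisons. Few genes of any kind were called there. Of all 18194 genes, 39 were higher and 35 lower after IL-2, 55 and 12 after IL-4, and 8 and 0 after IL-7. After IL-15 the counts were 0 and 0, and after IL-21 85 and 5.

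Of the 3 initiation genes, only Ulk1 passed without the block. It encodes the kinase that starts autophagosome formation. Its level was 8.25, 8.34 and 8.03 after IL-2, 8.31, 8.48 and 8.19 after IL-4, 8.46, 8.40 and 8.43 after IL-7, 8.61, 8.92 and 8.35 after IL-15, 8.46, 8.69 and 8.38 after IL-21, and 8.79, 8.97 and 9.24 in media control. Each of the IL-2 and IL-4 arrays lay below every media control array. Ulk1 fell after IL-2 (log2 difference -0.79 ± 0.16 SE, adjusted p = 0.00245) and after IL-4 (-0.67 ± 0.16, adjusted p = 0.0126). Differences of Ulk2, a second kinase of this kind, and Atg13, a subunit of the complex, ran between -0.59 and -0.10 in the 5 comparisons and passed in none.

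Among the 4 nucleation genes and phosphoinositide effectors, Becn1 (Beclin 1), Atg14 and Wipi1 passed nowhere, with differences from -0.65 to 0.18. The Wipi1 probe set used gave -0.07 after IL-2 and -0.14 after IL-21. Its other probe sets, in falling order of mean, gave 0.30, 0.61, -0.18, 0.11 and -0.02 after IL-2. After IL-21 they gave 0.79, 1.20, 0.55, 0.09 and -0.06. The direction for Wipi1 thus depends on the probe set, and the means of all of them lay under 7.23. Wipi2, which recruits the conjugation machinery to the membrane, was higher after IL-2 by 0.44 (adjusted p = 0.0227), with 9.0, 8.85 and 8.99 after IL-2 and 8.68, 8.40 and 8.45 in media control. The IL-2 arrays all lay above the media control arrays. A second probe set of Wipi2, with a mean of 8.31 against 8.68 for the one used, gave -0.52 after IL-2, the opposite direction, so that the direction for this gene depends on the probe set.

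Of the 6 conjugation genes, Atg12 moved with 3 cytokines. ATG12 is the ubiquitin-like protein that is joined to ATG5. Its level was 8.11, 8.52 and 8.41 after IL-2, 8.41, 8.71 and 8.55 after IL-4, 8.67, 8.85 and 8.58 after IL-7, 9.15, 9.39 and 8.86 after IL-15, 8.54, 8.73 and 8.55 after IL-21, and 9.14, 9.57 and 9.26 in media control. All arrays of IL-2, IL-4, IL-7 and IL-21 lay below all media control arrays, while those of IL-15 overlapped them. Atg12 fell after IL-2 (-0.98 ± 0.16, adjusted p = 0.000556), IL-4 (-0.77 ± 0.16, adjusted p = 0.00612) and IL-21 (-0.72 ± 0.16, adjusted p = 0.0104). After IL-7 the difference was -0.63 ± 0.16 (adjusted p = 0.0622), which passed only with the block (adjusted p = 0.00154). A second probe set of Atg12 had a mean of 7.61, against 8.78 for the one used. It gave 0.07 after IL-2, -0.10 after IL-4, -0.15 after IL-7 and 0.06 after IL-21. The fall of this gene thus depends on the probe set.

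Atg16l1, whose protein places the conjugation complex on the membrane, was higher after IL-4 by 0.40 (adjusted p = 0.0313), and Atg7, the activating enzyme of both systems, lower after IL-2 by 0.31 (difference -0.31, adjusted p = 0.0488). The Atg7 call was lost on omitting any of 16 arrays, and the Atg16l1 call on omitting any of 5. Atg3, Atg4b and Atg5 passed in none of the 5 comparisons, with differences from -0.08 to 0.31.

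The ATG8 family held the most calls among the autophagy genes of the list. After IL-2, 4 of its 5 members fell, after IL-4 3, after IL-7 1, and after IL-15 or IL-21 none. Map1lc3a encodes LC3A, an ATG8 protein conjugated to the autophagosome membrane. Its level was 7.76, 8.33 and 8.35 after IL-2, 8.39, 8.43 and 8.36 after IL-4, 8.31, 8.51 and 8.56 after IL-7, 8.61, 9.0 and 8.81 after IL-15, 8.82, 9.23 and 8.80 after IL-21, and 8.93, 9.22 and 9.41 in media control. The IL-2, IL-4 and IL-7 arrays lay below every media control array. Map1lc3a fell after IL-2 (-1.04 ± 0.18, adjusted p = 0.000758), after IL-4 (-0.80 ± 0.18, adjusted p = 0.00941) and after IL-7 (-0.73 ± 0.18, adjusted p = 0.0498), with the last of these lost on omitting any of 12 arrays.

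Gabarap and Gabarapl2 encode GABARAP proteins. Gabarap fell after IL-2 (-0.93 ± 0.15, adjusted p = 0.000414) and IL-4 (-0.53 ± 0.15, adjusted p = 0.0332), and Gabarapl2 after IL-2 (-0.66 ± 0.17, adjusted p = 0.0121). Map1lc3b (LC3B) fell after IL-2 by 0.64 on the log2 scale (-0.64 ± 0.15, adjusted p = 0.00859). Its probe sets differed in size, since the 2 next brightest gave -1.51 and -1.80 after IL-2, and after IL-21 the one used gave 0.14 while those gave -0.43 and -0.77.

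Gabarapl1 behaved differently from its relatives. Its level was 9.83, 9.83 and 9.68 after IL-2, 9.17, 9.07 and 9.14 after IL-4, 9.73, 9.78 and 9.60 after IL-7, 9.60, 9.69 and 9.52 after IL-15, 10.01, 10.07 and 9.85 after IL-21, and 9.76, 9.90 and 9.65 in media control. The IL-4 arrays lay between 9.07 and 9.17 and all other arrays of the series at 9.52 or above. It fell by 1.56-fold after IL-4 (-0.64 ± 0.11, adjusted p = 0.00122), while its difference after IL-2 was 0.01 (adjusted p = 0.991). Between cytokines it was higher after IL-2 than after IL-4 (0.65 ± 0.11, adjusted p = 0.00283), and lower after IL-4 than after IL-7 (-0.57 ± 0.11), IL-15 (-0.48 ± 0.11) and IL-21 (-0.85 ± 0.11), with adjusted p = 0.0106, 0.0178 and 0.00015.

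The cargo receptor genes Sqstm1 (p62) and Nbr1 passed in none of the 5 comparisons, with differences from -0.55 to -0.09. Sqstm1 was 10.01, 9.81 and 10.53 after IL-2 and 10.20, 10.65 and 11.10 in media control, and these groups overlapped. Of the transcription factors that switch on lysosomal genes, Tfeb passed nowhere (-0.23 to -0.05). Tfe3 fell by 0.34 on the log2 scale after IL-2 (adjusted p = 0.0308), by 0.34 after IL-4 (adjusted p = 0.0488) and by 0.42 after IL-21 (adjusted p = 0.0208). The Tfe3 call after IL-4 was lost on omitting any of the 18 arrays, that after IL-2 any of 4 and that after IL-21 any of 3. On the values as deposited, the direction of Tfe3 after IL-4 and IL-21 was the opposite. The median over all genes was itself 0.43 on those values, both after IL-4 and after IL-21.

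Among the cathepsin genes, Ctsw after IL-2 showed the largest fall of any member. Cathepsin W is a cysteine protease found in CD8 T cells and natural killer cells. Its level was 10.54, 11.01 and 10.81 after IL-2, 12.07, 12.61 and 12.05 after IL-4, 11.84, 12.32 and 11.999 after IL-7, 12.24, 12.63 and 12.35 after IL-15, 12.84, 13.29 and 12.74 after IL-21, and 12.42, 12.77 and 12.98 in media control. The IL-2 arrays were the lowest 3 of the 18. Ctsw was 3.84-fold lower after IL-2 than in media control (-1.94 ± 0.21, adjusted p = 2.40e-05), and lower after IL-2 than with each other cytokine, by -1.46 against IL-4, -1.27 against IL-7, -1.62 against IL-15 and -2.17 against IL-21 (adjusted p from 1.73e-05 to 0.00621).

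**Figure D3:**
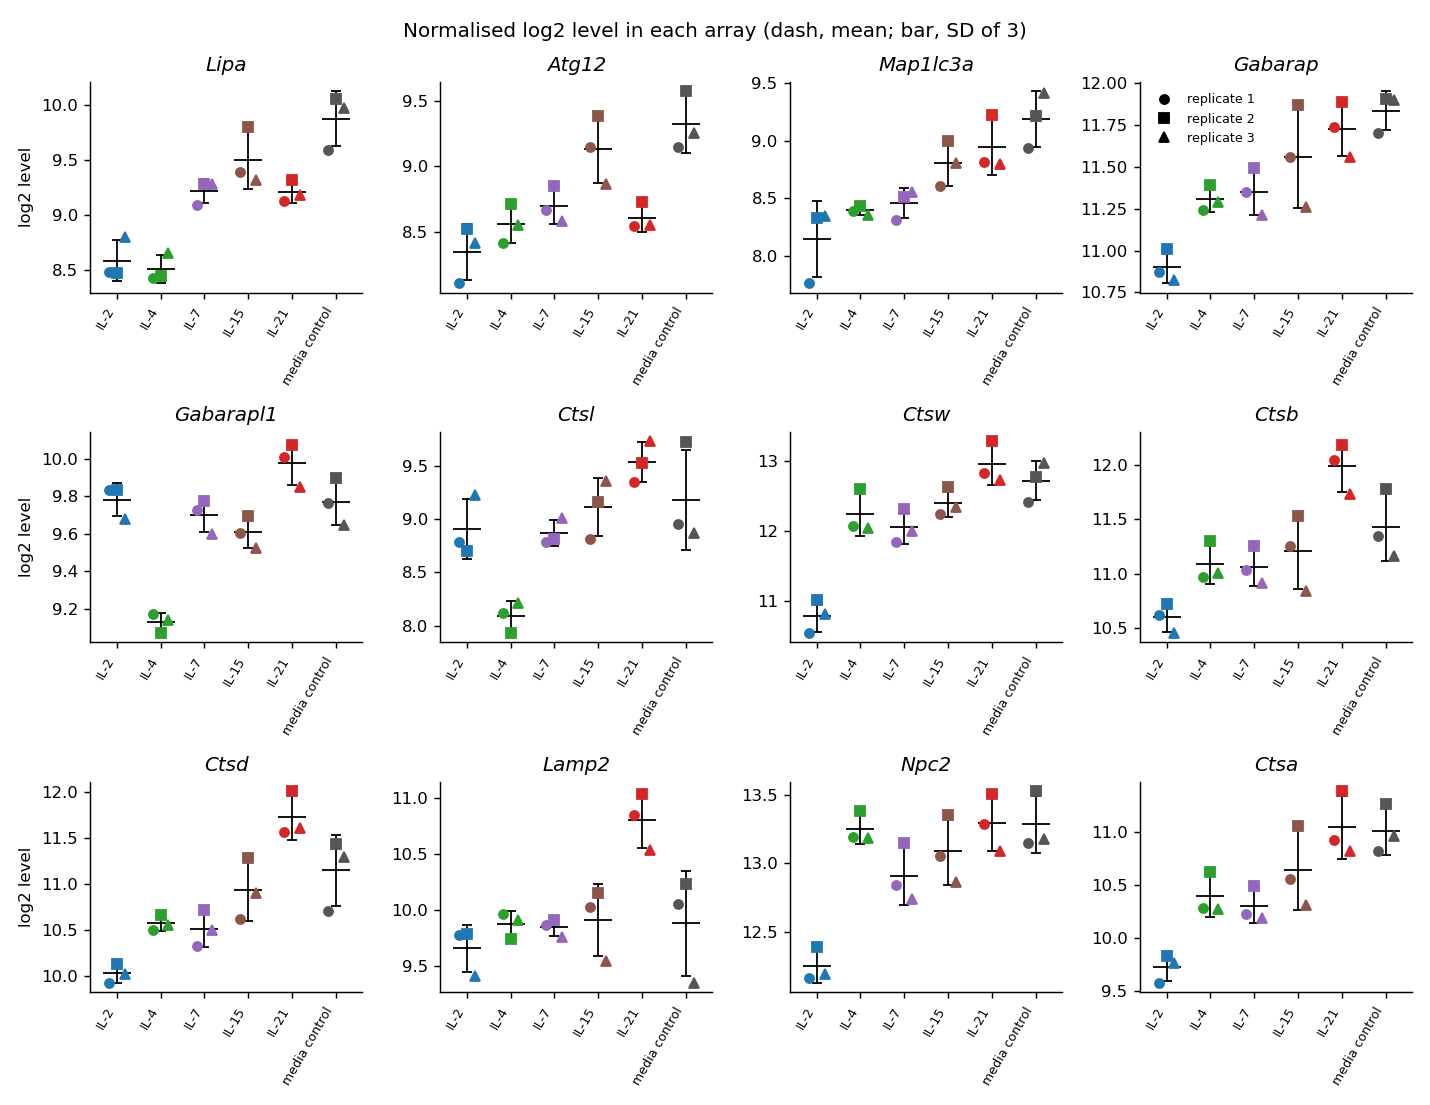
Normalised log2 level in each array for 12 members (y axis, each panel on its own range), with cytokines from left to right and media control at the far right, a dash at the group mean and a bar of 1 SD over 3 arrays. The IL-2 arrays are lowest for Ctsw, Ctsd, Ctsb, Ctsa and Npc2, the IL-4 arrays for Gabarapl1 and Ctsl, and the IL-21 arrays are highest for Lamp2.

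Ctsa, whose protein cathepsin A also protects other lysosomal enzymes, showed the same direction after IL-2. Its level was 9.58, 9.83 and 9.76 after IL-2, 10.29, 10.63 and 10.27 after IL-4, 10.23, 10.50 and 10.19 after IL-7, 10.56, 11.06 and 10.32 after IL-15, 10.93, 11.39 and 10.83 after IL-21, and 10.82, 11.27 and 10.96 in media control. It fell by 2.45-fold after IL-2 (-1.29 ± 0.20, adjusted p = 0.000349) and the groups did not overlap. The level after IL-21 differed from that in media control by 0.03 (adjusted p = 0.962).

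Ctsd and Ctsb encode the aspartic protease cathepsin D and the cysteine protease cathepsin B. Ctsd was 9.93, 10.13 and 10.02 after IL-2, 10.50, 10.67 and 10.55 after IL-4, 10.32, 10.71 and 10.50 after IL-7, 10.62, 11.28 and 10.90 after IL-15, 11.56, 12.01 and 11.61 after IL-21, and 10.71, 11.43 and 11.30 in media control. After IL-2 it was below, and after IL-21 above, every media control array. Ctsb was 10.62, 10.72 and 10.46 after IL-2, 10.97, 11.30 and 11.003 after IL-4, 11.03, 11.25 and 10.91 after IL-7, 11.25, 11.53 and 10.84 after IL-15, 12.05, 12.18 and 11.73 after IL-21, and 11.35, 11.78 and 11.16 in media control. After IL-2 both fell, Ctsd by 2.17-fold (-1.12 ± 0.20, adjusted p = 0.00104) and Ctsb by 1.78-fold (-0.83 ± 0.19, adjusted p = 0.00723). After IL-21, the difference from media control was 0.58 ± 0.20 for Ctsd (adjusted p = 0.104, with the block 0.00213) and 0.55 ± 0.19 for Ctsb (adjusted p = 0.113, with the block 0.00102), so that these passed only with the block. Within replicate numbers 1, 2 and 3 the IL-21 difference was 0.85, 0.58 and 0.31 for Ctsd and 0.70, 0.40 and 0.57 for Ctsb. Ctsb, which the rule for named genes did not take for IL-21, was described after its values were seen.

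The pattern of the IL-21 arrays was clearest between cytokines. The level of Ctsd was lower after IL-2, IL-4, IL-7 and IL-15 than after IL-21, with differences, each minus IL-21, of -1.69, -1.15, -1.21 and -0.79. For Ctsb these were -1.39, -0.89, -0.92 and -0.78, and each of the 8 passed (largest adjusted p = 0.0359).

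Of the lysosomal membrane genes, Lamp2 showed the only rise after IL-21 that passed. LAMP2 is a heavily glycosylated membrane protein needed for fusion with autophagosomes and for chaperone-mediated autophagy. Its level was 9.77, 9.78 and 9.41 after IL-2, 9.96, 9.74 and 9.91 after IL-4, 9.86, 9.91 and 9.76 after IL-7, 10.03, 10.15 and 9.54 after IL-15, 10.85, 11.04 and 10.54 after IL-21, and 10.06, 10.23 and 9.35 in media control. The IL-21 arrays were the highest 3 of the 18. Lamp2 rose by 1.91-fold after IL-21 (0.93 ± 0.21, adjusted p = 0.0137). The call was lost without media control replicate 3, IL-21 replicate 1 or IL-21 replicate 2. The 3 other probe sets of this gene gave 0.63, 0.67 and 1.26. Against IL-21, Lamp2 was lower after IL-2 by -1.15, after IL-4 by -0.94, after IL-7 by -0.97 and after IL-15 by -0.90 (adjusted p from 0.00374 to 0.0266). Lamp1, a related membrane protein and a surface sign of degranulation in CD8 T cells, fell by 0.58 on the log2 scale after IL-2 (adjusted p = 0.0208) and passed nowhere else. Mcoln1, the lysosomal calcium channel gene, passed nowhere (-0.58 to -0.17).

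Ctsl encodes cathepsin L, a lysosomal cysteine protease. Its level was 8.79, 8.70 and 9.22 after IL-2, 8.12, 7.93 and 8.22 after IL-4, 8.78, 8.81 and 9.01 after IL-7, 8.82, 9.16 and 9.36 after IL-15, 9.35, 9.53 and 9.73 after IL-21, and 8.95, 9.72 and 8.87 in media control. The IL-4 arrays were the lowest 3 of the 18. Ctsl fell after IL-4 (-1.09 ± 0.21, adjusted p = 0.00396) and was lower after IL-4 than after IL-15 (-1.02, adjusted p = 0.0122) and IL-21 (-1.45, adjusted p = 0.000582). After IL-2 its difference from media control was -0.27 (adjusted p = 0.554). Ctsc, which activates granzymes, and Ctsz passed in none of the comparisons with media control (-0.52 to 0.50).

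Among the other hydrolases, Lipa was the member called with the most cytokines. Lysosomal acid lipase hydrolyses cholesteryl esters and triglycerides. Lipa was 8.48, 8.47 and 8.80 after IL-2, 8.42, 8.45 and 8.65 after IL-4, 9.09, 9.28 and 9.28 after IL-7, 9.39, 9.80 and 9.32 after IL-15, 9.13, 9.32 and 9.18 after IL-21, and 9.59, 10.06 and 9.98 in media control. The IL-2, IL-4, IL-7 and IL-21 arrays all lay below the media control arrays. It fell after IL-2 (-1.29 ± 0.16, adjusted p = 5.81e-05), after IL-4 (-1.37 ± 0.16, adjusted p = 6.36e-05), by 1.58-fold after IL-7 (-0.66 ± 0.16, adjusted p = 0.0459) and by 1.59-fold after IL-21 (-0.67 ± 0.16, adjusted p = 0.0147). The fall after IL-7 no longer passed on omitting any of 14 arrays, and the IL-21 call was lost on omitting 1 array in 4 cases (replicates 2 and 3 of media control, replicates 1 and 3 of IL-21). Lipa was also lower after IL-4 than after IL-7 (-0.71), IL-15 (-0.99) and IL-21 (-0.70).

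Psap, the precursor of the saposins that help hydrolases reach sphingolipids, was 10.05, 10.35 and 9.54 after IL-2 and 11.12, 12.07 and 10.81 in media control. It fell by 2.56-fold after IL-2 (-1.35 ± 0.40, adjusted p = 0.0288). It had the widest spread of the called members and no longer passed on omitting either replicate 2 of media control or one of IL-2 replicates 1 and 3. Gaa, Hexa and Neu1, the genes of acid alpha-glucosidase, a hexosaminidase subunit and a sialidase, passed nowhere (-0.56 to 0.49).

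Npc2 binds cholesterol in the lysosome and hands it to NPC1. Npc2 was 12.16, 12.39 and 12.19 after IL-2, 13.19, 13.38 and 13.18 after IL-4, 12.84, 13.15 and 12.74 after IL-7, 13.05, 13.35 and 12.86 after IL-15, 13.29, 13.50 and 13.09 after IL-21, and 13.15, 13.53 and 13.18 in media control. The IL-2 arrays were the lowest 3 of the 18. It fell by 2.05-fold after IL-2 (-1.04 ± 0.16, adjusted p = 0.000391), and was lower after IL-2 than after IL-4 (-1.004), IL-15 (-0.84) and IL-21 (-1.05). Npc1 fell instead after IL-4 (-0.67 ± 0.17, adjusted p = 0.0193), and its difference after IL-2 was -0.23 (adjusted p = 0.487).

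**Figure D4:**
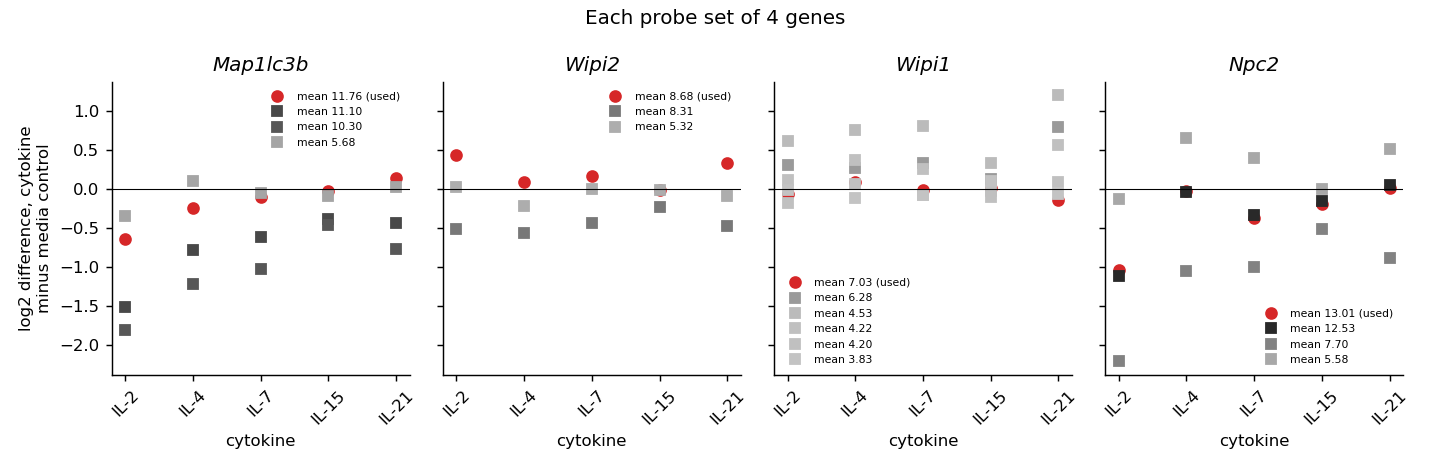
Log2 difference from media control for each cytokine (x axis) and each probe set of Map1lc3b, Wipi2, Wipi1 and Npc2, with the one used in red and the others in grey. The Wipi2 probe sets with means of 8.68 and 8.31 point in opposite directions after IL-2 (0.44 and -0.52).

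The members differed between cytokines as follows. Between IL-2 and IL-21, 11 of 39 differed, all lower after IL-2, against 6.58% of all genes. Between IL-2 and IL-15, 10 differed (8.60% of all genes), of which 9 were lower after IL-2 and Wipi2 was higher. Between IL-4 and IL-21, 6 differed, all lower after IL-4 (3.81% of all genes). Between IL-4 and IL-15, 4 differed (3.64% of all genes), and between IL-7 and IL-21 also 4 (2.24%). Lamp2, Ctsb and Ctsd made up all 3 members that differed between IL-15 and IL-21 (3.54% of all genes). Between IL-2 and IL-4, 3 differed (2.07%), between IL-4 and IL-7 2 (1.34%) and between IL-2 and IL-7 Ctsw alone (1.42%). Between IL-7 and IL-15 none was called (0.0110% of all genes), with 2 at an unadjusted p under 0.05, a threshold at which all genes were not counted. The count between IL-2 and IL-15 was 4 without IL-15 replicate 2, and that between IL-4 and IL-21 was 3 without IL-21 replicate 2. Between IL-4 and IL-15 it was 1 or 2 without IL-4 replicate 2, IL-15 replicate 1 or IL-15 replicate 2, and between IL-7 and IL-21 it was 1 without replicate 1 or 3 of IL-7 or 1 or 2 of IL-21. Between IL-15 and IL-21 it was 0 or 1 without replicate 1 or 3 of IL-15 or 1 or 2 of IL-21, and between IL-4 and IL-7 it was 0 or 1 without any IL-7 array or replicate 1 or 2 of IL-4. Between IL-2 and IL-7 it was 0 without IL-7 replicate 2, and 2 or 3 without media control replicate 1, IL-2 replicate 3, or IL-15 replicate 2 or 3.

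Genes of the same pathways outside the list were read in 7 further lists, and of all genes 0.747% were lower after IL-7 and 3.29% after IL-21. Of 27 other autophagy genes, 6 fell and 1 rose after IL-2 (22.2% and 3.70%, against 8.0% and 7.83% of all genes), 4 fell and 1 rose after IL-4 (14.8% and 3.70%, against 5.10% and 3.98%), and 2 fell after IL-21 (7.41%, against 3.29%). Tecpr1, a tethering factor, changed most, by -1.70 after IL-2, -1.79 after IL-4 and -1.31 after IL-21. Rb1cc1, the FIP200 subunit of the ULK1 complex, changed by -1.20 after IL-2 and -0.91 after IL-4.

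Of 12 measured selective autophagy receptors, 3 fell and 1 rose after IL-2, 5 fell and 1 rose after IL-4, 1 fell and 1 rose after IL-7, and 3 fell and 1 rose after IL-21. After IL-2 this was 25% lower and 8.33% higher, against 8.0% and 7.83% of all genes. The gene that rose each time was Bnip3, a mitophagy receptor known as a hypoxia-inducible gene, by 2.24 after IL-2, 2.16 after IL-4, 1.94 after IL-7 and 1.60 after IL-21. Calcoco1 fell after IL-2 (-1.96), IL-7 (-0.98) and IL-21 (-1.26), and Pink1, the kinase that marks damaged mitochondria, after IL-2 (-1.80), IL-4 (-1.09) and IL-21 (-0.88).

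Of 32 other lysosomal hydrolases, 7 fell and 3 rose after IL-2 and 3 fell and 1 rose after IL-4, whereas after IL-21 4 rose and none fell. After IL-2 this was 21.9% lower and 9.38% higher, against 8.0% and 7.83% of all genes, and after IL-21 12.5% higher, against 3.39%. After IL-21 these were Arsb (1.62), Galc (1.34), Gla (0.90) and Asah1 (0.58), enzymes of glycosaminoglycan and sphingolipid breakdown. Ctss, cathepsin S, fell by 1.52 on the log2 scale after IL-2 and by 2.05 after IL-4. Of 22 other lysosomal membrane genes, 9 fell after IL-2 (40.9%, against 8.0% of all genes), 4 after IL-4, 2 after IL-7 and 2 after IL-21, and none rose, with Mcoln2 at -1.46 after IL-2.

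Of 16 subunits and partners of the vacuolar ATPase, which acidifies the lysosome, 2 fell and 1 rose after IL-2, 1 fell after IL-4, 1 after IL-7 and 3 after IL-21. After IL-2 the shares, 12.5% lower and 6.25% higher, were near those of all genes (8.0% and 7.83%), and so was that after IL-4, 6.25% lower against 5.10%. After IL-21 the 3 that fell were 18.8%, against 3.29% of all genes, and after IL-7 the 1 that fell was 6.25%, against 0.747%. Atp6v1d was among them each time (-0.89 after IL-2, -0.84 after IL-4, -0.60 after IL-7 and -0.50 after IL-21). Of 16 sorting genes, the mannose 6-phosphate receptor gene Igf2r fell after IL-2 (-0.91) and IL-4 (-0.92), and Gga2 rose after IL-2 (0.87), a share of 6.25% in each direction after IL-2 and near that of all genes.

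Of 27 genes of nutrient sensing at the lysosome, 3 fell and 3 rose after IL-2, 4 fell after IL-4, 2 after IL-7 and 2 after IL-21. After IL-2 this was 11.1% in each direction, near the 8.0% and 7.83% of all genes, and after IL-4 14.8% lower, against 5.10%. After IL-7 it was 7.41% lower, against 0.747%, and after IL-21 7.41%, against 3.29%. Sesn3, a sestrin that restrains mTORC1, fell after IL-2 (-2.46), IL-4 (-1.76), IL-7 (-1.30) and IL-21 (-1.18). Sesn1 fell after IL-2 (-1.61), IL-4 (-1.41) and IL-21 (-1.23), while Fnip2 rose after IL-2 (1.49). After IL-15 none of the 7 lists held a called gene.

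Marker genes of other cell types were read as well, and their relation to the members was not tested. The summed linear signal of 16 myeloid markers was 669.5, 721.4 and 562.9 after IL-2, 715.9, 948.8 and 608.1 after IL-4, 820.6, 1012.5 and 562.8 after IL-7, 988.0, 2349.0 and 618.9 after IL-15, 954.3, 1649.3 and 642.3 after IL-21, and 1418.2, 5454.5 and 764.5 in media control. None of the 16 passed the test with any cytokine. The highest sum was that of media control replicate 2, and the macrophage lysozyme gene Lyz2 was 6.30, 7.09 and 5.86 after IL-2 and 8.81, 11.54 and 7.67 in media control. Of the 16, only Lyz2 had a media control mean over the background level.

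The summed signal of 4 natural killer cell markers (Klre1 among them) was 128.6, 153.4 and 175.3 after IL-2, 140.5, 144.4 and 115.4 after IL-4, 186.2, 188.7 and 209.2 after IL-7, 271.3, 348.0 and 205.3 after IL-15, 309.4, 330.6 and 363.6 after IL-21, and 294.0, 499.0 and 182.4 in media control. The IL-2 and IL-4 sums lay below all those in media control. None of the 4 had a group mean over the background level, and the only call against media control was a fall of Klre1 after IL-4 (-1.22, adjusted p = 0.00766). The part of natural killer cells in the lower level of Ctsw after IL-2 was not tested.

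Of 11 dendritic cell markers, 4 were lower after IL-2 than in media control, Cd74 among them (-2.31 ± 0.36, adjusted p = 0.000444), whose product is the invariant chain of MHC class II. The 4 dendritic cell markers were 36.4% of their list, against 8.0% of all genes. After IL-4, IL-7 and IL-21, 1 of the 11 was lower each time (9.09%), against 5.10%, 0.747% and 3.29% of all genes. Of 11 CD8 T cell markers, 8 were lower after IL-2 (72.7%), 3 after IL-4 (27.3%), 1 after IL-7 and 1 after IL-21 (9.09% each). Of all genes, 8.0%, 5.10%, 0.747% and 3.29% were lower in the same order. Of 11 B cell markers, 3 were lower after IL-2 (27.3%), 2 after IL-7 (18.2%) and 1 after IL-21 (9.09%). No group mean of these 11 lay over the background level. The part of these other cells in the lower levels of Psap, Ctsd, Ctsb, Lipa, Npc2 and Ctss, which myeloid cells also express, was not tested.

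**Figure D5:**
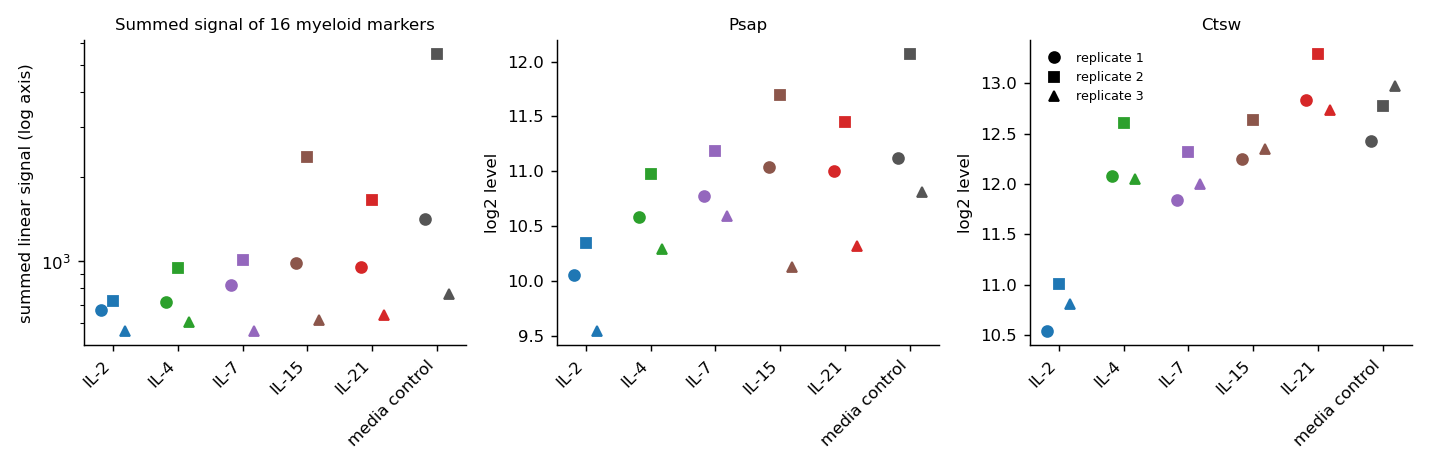
Summed signal of 16 myeloid markers on a log axis (left) and log2 levels of Psap (middle) and Ctsw (right) in each of the 18 arrays, cytokines from left to right and media control at the far right. Media control replicate 2 has the highest myeloid sum (5454.5) and the highest Psap level (12.07), while its Ctsw level (12.77) is not the highest.

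Promoter sequence was looked at for the CACGTG motif, the core of the element that TFEB and TFE3 bind, for GTAAACA, the element of FOXO factors, and for TTCNNNGAA, that of STAT factors. The windows, from RefSeq (GRCm38.p6), hold the 250 bases before and 50 after each start, and 39 windows of 33 listed genes were given. Both strands were read, and no window of a member held more than 1 kind of motif. CACGTG was in 10 of 39 windows (25.6%), against 7.15% of all 32851 windows and 8.72% of those of measured genes. GTAAACA was in none, against 3.65% of all windows. TTCNNNGAA was in 5 windows (12.8%), against 8.30%. Of the 10 members with CACGTG, 4 fell after IL-2 (Ctsa, Ctsd, Lamp1 and Atg7), and of the 22 measured members whose windows lacked it, 8 did.

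The stretches below come from before the start sites of members called after IL-2 or IL-4, with the motif in capitals, and each runs 5′ to 3′ on the strand of the gene. The first 4 hold CACGTG, which occurs 4 times in that of Lamp1, and the last pair hold TTCNNNGAA.
Ctsa, chr2:164833721-164833772, plus strand: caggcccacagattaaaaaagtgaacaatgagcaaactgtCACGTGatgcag
Ctsd, chr7:142387880-142387965, minus strand: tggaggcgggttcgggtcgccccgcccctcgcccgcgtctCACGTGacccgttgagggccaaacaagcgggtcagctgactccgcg
Lamp1, chr8:13159060-13159160, plus strand: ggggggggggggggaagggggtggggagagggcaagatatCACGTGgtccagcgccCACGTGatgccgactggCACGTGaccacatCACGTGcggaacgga
Ctsl, chr13:64370711-64370770, minus strand: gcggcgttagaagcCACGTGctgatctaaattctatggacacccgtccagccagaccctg
Gabarap, chr11:69991274-69991362, plus strand: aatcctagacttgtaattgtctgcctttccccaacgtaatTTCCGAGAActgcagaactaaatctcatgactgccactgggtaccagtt
Gabarapl1, chr6:129532942-129533026, plus strand: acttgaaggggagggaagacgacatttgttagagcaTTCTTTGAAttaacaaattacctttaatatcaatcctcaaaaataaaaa
Ctsa, Ctsd and Lamp1 fell after IL-2, Ctsl and Gabarapl1 after IL-4, and Gabarap with both. A match is a run of letters in this window, and binding was not measured.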

How the data were processed

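The authors deposited log2 values per probe set, made with the RMA algorithm in Affymetrix Expression Console 1.1 from Affymetrix mouse arrays scanned with Command Console 3.1.1. Per the labels, RNA of replicates 1 and 2 of every group (12 arrays) came from the RNeasy kit and that of replicate 3 (6 arrays) from TRIzol with Direct-zol, so that the kit is balanced over the groups and is taken up by the replicate block. Why 3 arrays have a lower scale is not given in the sources used here. That scale is not balanced over the groups, since replicate 3 of IL-4, IL-7 and IL-21 lacked it, and the block does not take it up. A difference left by it after normalization cannot be told apart from one between the groups in replicate 3. No deposited column lacked a sample.

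Of 45101 probe sets, 34958 had 1 gene symbol, 932 several and 9211 none in the annotation used, giving 18194 genes. The 18 arrays were quantile normalised with limma 3.58.1 in R 4.3.3, then fitted with lmFit and eBayes as 6 group means across the 18 arrays, leaving 12 residual degrees of freedom. All 15 differences were tested two-sided, and p was adjusted by Benjamini-Hochberg over all genes of a comparison at 0.05. Replicate numbers paired the arrays: after group means were removed, the 45 pairs with the same number correlated at 0.44 or more and the 90 others at 0.38 or less. Arrays have no read depth, and 3 arrays a group limit the precision. The fit was tested on simulated data. Figures used Python 3.11.15 and matplotlib 3.10.9.

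The members, lists and motifs were chosen with earlier results of these data known. Values in every array are given for members that passed the F test and a comparison with media control without overlap, up to 6 per cytokine, with up to 3 genes of each further list, and other genes named were chosen after their values were seen.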

Additional observations from a re-analysis of the deposited data

How the results depend on the processing

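Under the alternatives other than leaving out arrays, 3 differences of single members reversed in sign, and the number of calls moved in many comparisons. With the values as deposited, the members lower than in media control numbered 0 after IL-2, 0 after IL-4, 0 after IL-7, 0 after IL-21, those higher numbered 0 after IL-2, 0 after IL-4, 0 after IL-21, those that differed in a pair numbered 0 for IL-2 against IL-4, 0 for IL-2 against IL-7, 0 for IL-2 against IL-15, 1 for IL-2 against IL-21, 0 for IL-4 against IL-7, 0 for IL-4 against IL-15, 0 for IL-4 against IL-21, 0 for IL-7 against IL-21, 0 for IL-15 against IL-21, and those that differed among the 6 groups numbered 0. With each array shifted to 1 median in place of quantile normalization, the members lower than in media control numbered 4 after IL-4, 0 after IL-7, 1 after IL-21, those higher numbered 0 after IL-4, 0 after IL-21, and those that differed in a pair numbered 1 for IL-4 against IL-7, 2 for IL-4 against IL-15, 1 for IL-7 against IL-21, 1 for IL-15 against IL-21. With the replicate number as a block on the quantile-normalised values, the members lower than in media control numbered 22 after IL-4, 17 after IL-7, 11 after IL-21, those higher numbered 3 after IL-2, 3 after IL-4, 5 after IL-21, those that differed in a pair numbered 14 for IL-2 against IL-4, 12 for IL-2 against IL-7, 18 for IL-2 against IL-15, 6 for IL-4 against IL-7, 8 for IL-4 against IL-15, 14 for IL-4 against IL-21, 11 for IL-7 against IL-21, 9 for IL-15 against IL-21, and those that differed among the 6 groups numbered 29. With the block on the values as deposited, the members lower than in media control numbered 2 after IL-2, 0 after IL-4, 0 after IL-7, 0 after IL-21, those higher numbered 0 after IL-2, 0 after IL-4, those that differed in a pair numbered 1 for IL-2 against IL-15, 0 for IL-4 against IL-7, 0 for IL-4 against IL-15, 0 for IL-4 against IL-21, 0 for IL-7 against IL-21, 0 for IL-15 against IL-21, and those that differed among the 6 groups numbered 4. With the mean of all probe sets of a gene, the members lower than in media control numbered 0 after IL-7, those higher numbered 0 after IL-2, and those that differed in a pair numbered 1 for IL-4 against IL-7. Without genes under the background level, those higher numbered 0 after IL-2, 0 after IL-4, and those that differed in a pair numbered 3 for IL-2 against IL-7, 5 for IL-15 against IL-21. Without genes under a background level set without Mbp and Tg, which was chosen after seeing the data, the members lower than in media control numbered 5 after IL-7, 5 after IL-21, and those that differed in a pair numbered 5 for IL-2 against IL-4, 3 for IL-2 against IL-7. With the trend and robust options of limma, the members lower than in media control numbered 1 after IL-7, and those that differed in a pair numbered 2 for IL-2 against IL-7. Without the 3 arrays of the lower scale, the members lower than in media control numbered 1 after IL-7, those higher numbered 0 after IL-2, 0 after IL-4, and those that differed in a pair numbered 3 for IL-2 against IL-7, 4 for IL-4 against IL-7. The number of all genes called moved too. Lower after IL-4 were 12 of all genes on the values as deposited, 638 with 1 median and 2348 with the block, against 927. The cause of these shifts was not tested. With 1 replicate number or 1 array left out in turn, the counts ran 0 to 4 for IL-15 against IL-21, 1 to 17 for IL-2 against IL-15, 2 to 12 for IL-2 against IL-21, 0 to 4 for IL-2 against IL-4, 0 to 3 for IL-2 against IL-7, 0 to 5 for IL-4 against IL-15, 1 to 8 for IL-4 against IL-21, 0 to 3 for IL-4 against IL-7, 0 to 5 for IL-7 against IL-21, 0 to 1 for members higher after IL-2, 0 to 1 for members higher after IL-21, 0 to 1 for members higher after IL-4, 8 to 21 for members lower after IL-2, 0 to 4 for members lower after IL-21, 1 to 10 for members lower after IL-4, 0 to 5 for members lower after IL-7, 3 to 18 for members that differ among the 6 groups. Leaving out IL-15 replicate 2 alone gave 4 for IL-2 against IL-15, and leaving out replicate 1 of all groups gave 3 for the members that differ among the 6 groups. The replicate block lost no call with media control and kept every call made without it.

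The sign reversed for Tfe3 on the values as deposited, with or without the block (0.15 after IL-4 and 0.062 after IL-21), and for Wipi2 after IL-2 with the mean of its probe sets (-0.021). On the values as deposited the median over all genes was 0.43 after IL-4 and after IL-21. Depth is limited by 3 arrays a group, and levels under the background level have no exact fold change.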
